A study of Arabidopsis thaliana with 80 samples.

Results

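FLOWERING LOCUS C (FLC, AT5G10140) was followed through rosettes of Arabidopsis thaliana grown outdoors. It is 1 gene of the 33602 in the expression table and its row was taken by identifier. Messenger RNA was sequenced from the natural accessions Bon, Moj and Vel of southern Spain and from Col-0, the laboratory reference line, all grown from seed in pots in a common garden at El Castillejo. The labels give no treatment and no genetic modification for any group. Each library was a pool of 5 plants, of which the aerial part of the rosette was kept, without roots, and at the reproductive stage without stalks. Libraries carry the numbers ex1 to ex4, called collections here, and a time of day, either morning (10:00 to 10:30) or evening as labelled (15:30 to 16:00). Bon and Moj were present in ex1 to ex3, and Vel and Col-0 in ex1 to ex4. The labels name vegetative, inductive and reproductive stages but give neither a date nor a stage for a collection, and ex is their tag for extraction, so collection and extraction batch cannot be told apart.

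Of 80 libraries, 79 were used, in 28 groups of accession, collection and time of day, 23 with 3 libraries and 5 with 2. The library labelled Moj ex3 morning replicate 1 was left out. Over the 20871 genes tested, its differences from the mean of the 4 accessions in the ex3 morning correlated at 0.77 with those of Vel and at -0.16 with those of Moj. Its FLC value was 2.70, and the main FLC differences of Moj ex3 are also given with it. Values are on a log2 scale, taken of an expression estimate per gene length plus an offset of 1. The table gives no counts, so depth is unknown. Replicates are pools from 1 garden, so tests measure the spread between pools. FLC is overlapped by its antisense RNAs, and the kit that made the libraries keeps no strand, which means that reads of either RNA cannot be told apart. In rosettes, fewer cells expressing a gene and less RNA per cell cannot be told apart either.

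FLC encodes a MADS-domain transcription factor that delays flowering by repressing the floral integrators SOC1 and FT. It is switched on by the FRIGIDA complex and by chromatin factors, and it is held down by the autonomous pathway. During prolonged cold, VIN3 and the Polycomb machinery silence it stepwise, and the silent state is kept afterwards, which is the basis of vernalization. Col-0 carries a non-functional FRIGIDA allele and is known for low FLC.

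The gene lies on the minus strand of chromosome 5, from 3173382 to 3179448 in TAIR10.1, and covers 6067 bases with its introns. UFC (AT5G10150, UPSTREAM OF FLC) lies 2489 bases upstream and AT5G10130 (DFC) 680 bases downstream. The 250 bases upstream of the annotated starts of FLC and UFC are shown because both genes fell together below. The first is chr5:3179449-3179698 and the second chr5:3184111-3184360, both on the minus strand and both from RefSeq's TAIR10.1. Capitals mark matches to 6 motifs searched on both strands: CACGTG (G-box), AAATATCT (evening element), CCGAC (core of the cold-response C-repeat), CATGCA (core of the RY element), AACGG (core of the mitosis-specific activator element) and TTTCCCGC (E2F site).
FLC: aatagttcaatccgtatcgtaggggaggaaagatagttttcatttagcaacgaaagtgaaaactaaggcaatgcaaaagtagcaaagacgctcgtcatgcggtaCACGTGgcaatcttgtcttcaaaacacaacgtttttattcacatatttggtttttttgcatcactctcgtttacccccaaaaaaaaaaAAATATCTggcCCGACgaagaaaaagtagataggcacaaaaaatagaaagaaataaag
UFC: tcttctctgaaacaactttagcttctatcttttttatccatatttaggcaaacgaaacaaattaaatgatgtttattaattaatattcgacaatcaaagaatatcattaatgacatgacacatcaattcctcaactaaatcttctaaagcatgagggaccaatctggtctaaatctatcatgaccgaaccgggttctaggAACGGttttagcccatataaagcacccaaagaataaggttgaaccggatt
In FLC the G-box started 146 bases, the evening element 58 bases and CCGAC 47 bases before the annotated start, without overlap. UFC held none of these 3, and a single AACGG. Of 27443 upstream regions of the same length, 6.49% held CACGTG, 4.79% AAATATCT, 12.0% CCGAC, 8.43% CATGCA, 20.6% AACGG and 0.619% TTTCCCGC. These matches describe the letters only.

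At the first collection FLC was high and nearly equal in the 3 Spanish accessions. In Bon ex1 the morning libraries read 5.62, 5.38 and 5.38 and the evening libraries 5.57, 5.42 and 5.42. Moj ex1 read 5.42, 5.69 and 5.45 in the morning and 5.22 and 5.25 in the evening. Vel ex1 read 5.35, 5.27 and 5.34 in the morning and 5.16, 5.12 and 5.26 in the evening. The Spanish libraries therefore all lay between 5.12 and 5.69, and the accessions overlapped. In Col-0 ex1, FLC read 1.30, 1.62 and 1.37 in the morning and 2.29 and 1.82 in the evening, so the highest Col-0 library stood far below the lowest Spanish one. The Spanish accessions exceeded Col-0 by 3.50 log2 units in Vel (SE 0.116), 3.63 in Moj (SE 0.122) and 3.72 in Bon (SE 0.116), and the highest limma adjusted p was 4.1e-33. Of all 20871 genes tested, 43.9% passed in Bon against Col-0 in either direction, 43.9% in Moj and 40.9% in Vel. None of the 3 differences between Spanish accessions passed in ex1. They were 0.09 for Bon minus Moj (95% interval -0.14 to 0.32), 0.22 for Bon minus Vel (-0.004 to 0.43) and 0.13 for Moj minus Vel (-0.11 to 0.36), where 25.1%, 32.3% and 23% of genes passed. Bon minus Vel passed after subtraction of 4 reference genes, at 0.53 (adjusted p = 2.3e-04).

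**Figure D1:**
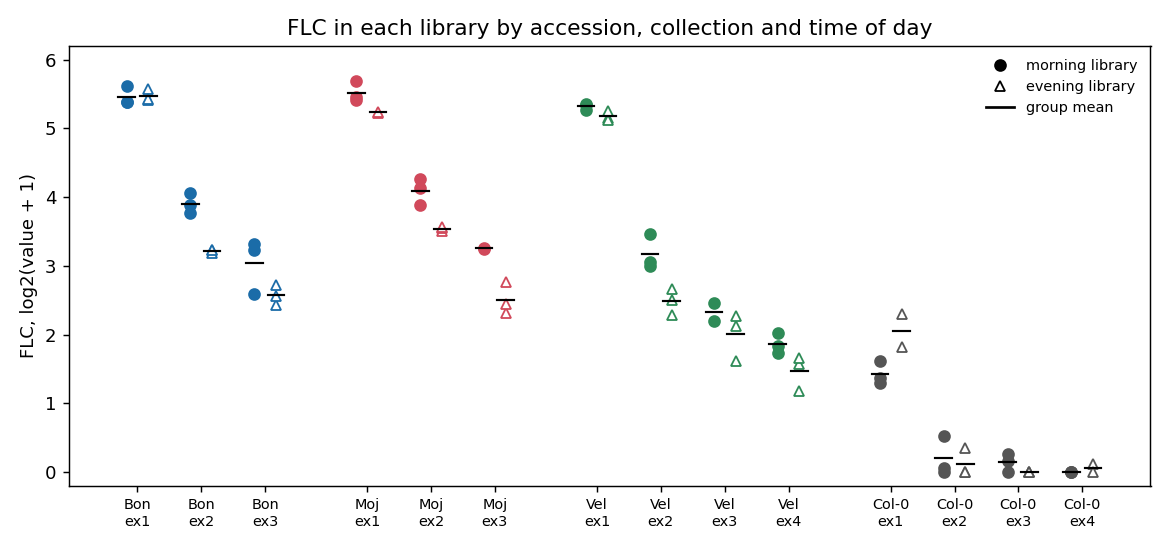
FLC in each of the 79 libraries, in log2 units with an offset of 1, by accession and collection. Filled circles are morning libraries, open triangles are evening libraries and bars are group means. The Spanish accessions start between 5.12 and 5.69 and step down at each collection, while Col-0 starts between 1.30 and 2.29 and is close to 0 from ex2 on.

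From ex1 to ex2 FLC fell in all 4 accessions, and the groups did not overlap in any. Bon ex2 read 3.89, 3.77 and 4.06 in the morning and 3.23, 3.18 and 3.23 in the evening, which is a fall of 1.90 log2 units (SE 0.109). Moj ex2 read 3.89, 4.26 and 4.13 in the morning and 3.50, 3.55 and 3.57 in the evening, a fall of 1.56 (SE 0.116). Vel ex2 read 3.06, 3.001 and 3.46 in the morning and 2.51, 2.28 and 2.66 in the evening, a fall of 2.42 (SE 0.109). Col-0 ex2 read 0.53, 0.00 and 0.06 in the morning and 0.00, 0.35 and 0.00 in the evening. Its mean fell by 1.59 (SE 0.116), and 3 of its 6 libraries were listed at 0. The highest limma adjusted p of the 4 falls was 2.8e-17, against a background in which 68.8% of genes passed in Bon, 70.7% in Moj, 70.1% in Vel and 58% in Col-0. An exact permutation test on FLC alone, with libraries exchanged between the collections within each time of day, gave p = 0.005 in each accession, the smallest that test can give.

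FLC went on falling after ex2 in the Spanish accessions, in smaller steps. Bon ex3 read 3.33, 3.23 and 2.59 in the morning and 2.43, 2.56 and 2.73 in the evening, a fall of 0.75 (SE 0.109, limma adjusted p = 1.2e-07, with 49.4% of genes passing). Moj ex3 read 3.25 and 3.25 in the morning and 2.77, 2.31 and 2.44 in the evening. That is a fall of 0.94 (SE 0.116, limma adjusted p = 4.7e-09, with 37% of genes passing), or of 1.03 with the left-out library. Vel ex3 read 2.20 and 2.46 in the morning and 2.12, 1.62 and 2.27 in the evening, a fall of 0.66 (SE 0.116, limma adjusted p = 1.1e-04). In Vel only 6.89% of all genes passed between ex2 and ex3. The exact permutation p was 0.005 in all 3, the smallest possible, although libraries of ex2 and ex3 overlapped in Bon and Vel.

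In Vel, the Spanish accession that was also collected in ex4, FLC fell again. Vel ex4 read 1.73, 1.83 and 2.02 in the morning and 1.18, 1.57 and 1.65 in the evening. The fall from ex3 was 0.50 (SE 0.116, limma adjusted p = 6.0e-04, exact permutation p = 0.015), against 30.7% of genes that passed. In Col-0, ex3 read 0.00, 0.16 and 0.26 in the morning and 0.00 in all 3 evening libraries, and ex4 read 0.00 in all 3 morning libraries and 0.11 and 0.00 in the evening. Neither later step passed in Col-0 (-0.09 and -0.04, limma adjusted p = 0.64 and 0.80, where 19.4% and 53.8% of genes passed). With FLC at or near 0 there, a further fall could not have been seen.

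Taken back to the linear scale, the share of the ex1 level that was left differed between accessions. Moj kept 32.9% in ex2 and 16.3% in ex3, Bon kept 25.8% and 14.4%, and Vel kept 17.2%, 9.61% and, in ex4, 5.98%. Col-0 kept 5.16% in ex2. The step from ex1 to ex2 was larger in Vel than in Moj by 0.86 log2 units (SE 0.159, limma adjusted p = 7.6e-05) and than in Bon by 0.52 (SE 0.155, limma adjusted p = 0.015). Only 10.4% and 15.8% of all genes passed these tests of a difference in step. The Vel and Bon difference missed the threshold after subtraction of the reference genes (0.30, adjusted p = 0.19). It also missed it without replicate 1 of every group (0.56, adjusted p = 0.056) and without replicate 2 (0.46, adjusted p = 0.16). Bon and Moj differed by -0.35 (95% interval -0.66 to -0.03, adjusted p = 0.15, 12.2% of genes passing). From ex2 to ex3 no difference in step among the Spanish accessions passed, with -0.27 for Moj minus Vel, -0.09 for Bon minus Vel and 0.19 for Bon minus Moj, where 15.7%, 27.1% and 1.42% of genes passed. With the left-out library the values for Moj minus Vel and Bon minus Moj were -0.37 and 0.28, and neither passed. Steps in Col-0 cannot be ranked against the others: on the offset of 1, Vel minus Col-0 was -0.83 and Bon minus Col-0 -0.32 from ex1 to ex2 (33% and 31.4% of genes passing), and with an offset of 0.1 both signs turned, to 1.19 and 1.79. From ex2 on Col-0 had almost no FLC left to lose, and Bon, Moj and Vel minus Col-0 were -0.66, -0.85 and -0.57 from ex2 to ex3 (26.3%, 16.3% and 1.61% of genes passing). Vel minus Col-0 was -0.46 from ex3 to ex4 (14.6% of genes passing).

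**Figure D2:**
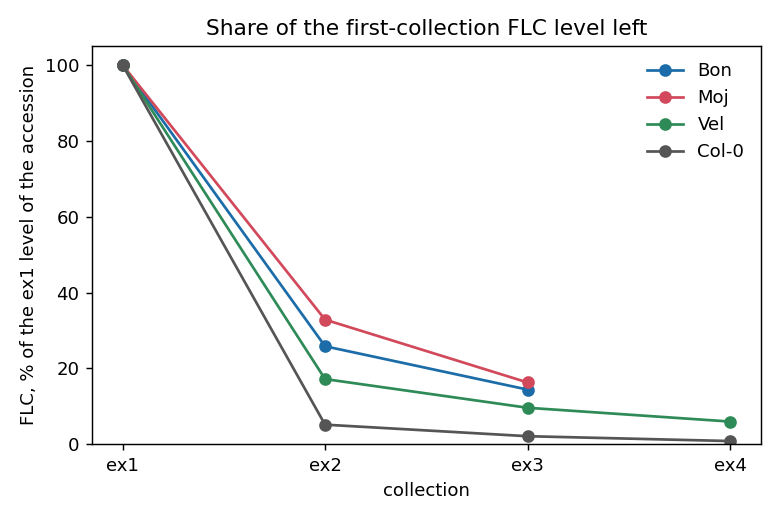
FLC on the linear scale as a percentage of the ex1 level of the same accession, by collection. Lines join the means of morning and evening in each accession. Moj keeps 32.9% in ex2, Bon 25.8%, Vel 17.2% and Col-0 5.16%, and Vel reaches 5.98% in ex4.

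After these steps Vel stood below Moj and Bon. For Bon and Vel, subtraction of the reference genes gave an ex1 difference that passed and a difference in step that did not. In ex2 Vel stood 0.99 below Moj and 0.73 below Bon (SE 0.109 for both), and in ex3 0.71 below Moj (SE 0.122, or 0.62 with the left-out library) and 0.64 below Bon (SE 0.116). All 4 differences passed, the highest limma adjusted p being 5.9e-06. Of all genes 35.8% and 37.8% passed in ex2 and 46.2% and 49% in ex3. From high to low, the order of the means in ex2 was Moj, Bon, Vel and Col-0. In ex3 Moj and Bon both stood above Vel, and Vel above Col-0. Bon minus Moj missed the threshold in both, at -0.26 in ex2 (95% interval -0.48 to -0.04, adjusted p = 0.065, with 32.4% of genes passing) and -0.07 in ex3 (-0.30 to 0.16, adjusted p = 0.72, with 26.2%). The ex3 sign turned with the left-out library (0.02) and without Bon ex3 morning replicate 3 (0.05). The ex2 value passed without Bon ex2 morning replicate 3 (-0.30, adjusted p = 0.046), without Moj ex2 morning replicate 1 (-0.31, adjusted p = 0.036) and after subtraction of the reference genes (-0.33, adjusted p = 0.032). Vel stayed above Col-0 in every collection, by 2.67 in ex2, 2.10 in ex3 and 1.63 in ex4, beside 51.8%, 50.6% and 52.9% of genes that passed.

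In the Spanish accessions FLC was lower in the evening than in the morning in ex2, and on average in ex3. In ex2 each of the 9 Spanish evening libraries lay below all morning libraries of its accession. The evening value was lower by 0.69 log2 units in Bon and in Vel and by 0.55 in Moj (SE 0.155 each), with limma adjusted p of 1.9e-04, 2.4e-04 and 0.0028 in that order. Evening FLC was thus 58.9% of the morning level in Bon, 66.0% in Moj and 56.9% in Vel. Time of day moved many genes in ex2, since 47.8% passed in Bon, 45.6% in Moj and 41.2% in Vel. Averaged over the 3 accessions the ex2 difference was -0.64 (SE 0.089, limma adjusted p = 9.1e-09, exact permutation p = 0.00025, the smallest possible), with 62.3% of genes passing.

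In ex3 the average was -0.51 (SE 0.096, limma adjusted p = 8.2e-06, exact permutation p = 0.0065, with 54.4% of genes passing). It passed in Moj (-0.74, adjusted p = 5.7e-04, and -0.56 with the left-out library) and in Bon (-0.48, adjusted p = 0.011), and it missed the threshold in Vel (-0.32, adjusted p = 0.15). Of all genes 31%, 41.6% and 30.4% passed in these 3. In Bon 1 morning library, at 2.59, lay within the evening range, and the call was lost without Bon ex3 morning replicate 1 (-0.34), morning replicate 2 (-0.38) or evening replicate 1 (-0.41). In Moj the call was also lost without replicate 2 of every group, at -0.64 in ex3 and -0.47 in ex2. In Vel ex4 the difference was -0.39 (adjusted p = 0.038, with 39.1% of genes passing). It missed the threshold without Vel ex4 morning replicate 2 (-0.41, adjusted p = 0.064), morning replicate 3 (-0.31) or evening replicate 1 (-0.25).

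In ex1 the Spanish average was -0.14 (SE 0.093, limma adjusted p = 0.24, with 42% of genes passing, and exact permutation p = 0.032 without adjustment). None of the single values passed, at 0.01 in Bon, -0.29 in Moj and -0.14 in Vel, where 24.3%, 20.5% and 24.8% of genes did. All ex1 evening libraries of Moj, and narrowly those of Vel, still lay below all morning libraries of their accession. The time-of-day difference was larger by 0.51 in ex2 than in ex1 (interaction -0.51, SE 0.129, limma adjusted p = 7.5e-04), and the ex3 interaction was -0.38 (SE 0.134, adjusted p = 0.016). These interactions were tested after the values were seen, and 53.5% and 50.1% of all genes passed them. In single accessions the ex2 interaction passed in Bon, Vel and Col-0, where 36.4%, 31.3% and 36.1% of genes did, and the ex3 interaction in Col-0, where 30% did. With the left-out library the ex3 interaction was -0.31 (adjusted p = 0.052), and without replicate 2 of every group it was -0.22 (adjusted p = 0.39). In Col-0 ex1 the sign was the other way: both evening libraries lay above the 3 morning ones, by 0.63 on average (SE 0.173, limma adjusted p = 0.0040, with 29% of genes passing). Without Col-0 ex1 evening replicate 1 this was 0.39 (adjusted p = 0.20).

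**Figure D3:**
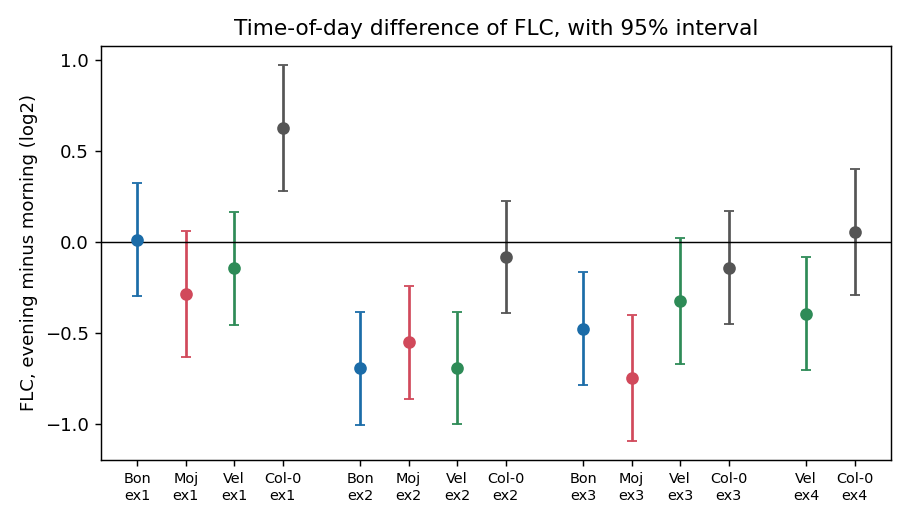
Evening minus morning of FLC in log2 units for each accession and collection, with the 95% interval of the limma fit across all groups. For Bon, Moj and Vel the values are 0.01, -0.29 and -0.14 in ex1 and -0.69, -0.55 and -0.69 in ex2. Col-0 lies at 0.63 in ex1.

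Genes known to act on FLC moved in mixed directions. Of the 18 activators tested, 6 rose and 7 fell from ex1 to ex2 in the Spanish accessions, and 5 did not pass; their median change was 0.04, beside -0.04 for all genes, of which 38% rose and 44% fell (82% in all). FRI, the scaffold of the FRIGIDA complex, fell by 0.26, while its partners SUF4, FES1 and FRL1 rose by 0.49, 0.30 and 0.36. ARP6, of the complex that deposits the histone variant H2A.Z, fell by 0.47, and ELF6, a demethylase of histone H3 lysine 27, fell by 0.46. ATX1, a methyltransferase of histone H3 lysine 4, fell by 0.59 (SE 0.062). From ex2 to ex3, 2 activators rose, 1 fell and 15 did not pass, where 27.1% of all genes rose and 26.3% fell (53.4% in all). The one that fell was again ATX1, by 0.58 (SE 0.063, limma adjusted p = 3.4e-11).

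Of 7 autonomous pathway genes, 2 rose, 4 fell and 1 did not pass from ex1 to ex2 (median -0.19). Of all genes, 38% rose and 44% fell there. FPA, an RNA-binding protein, rose by 0.46, and FY, a polyadenylation factor, fell by 0.46. From ex2 to ex3, 2 rose, 2 fell and 3 did not pass, where 27.1% of all genes rose and 26.3% fell. FVE, a histone-binding protein, fell by 0.42 at that step.

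Among 13 vernalization and Polycomb genes, 5 rose, 5 fell and 3 did not pass from ex1 to ex2 (median 0.04). From ex2 to ex3, 4 rose, 4 fell and 5 did not pass. Of all genes, 38% rose and 44% fell at the first step, and 27.1% rose and 26.3% fell at the second. VIN3, the cold-induced protein of FLC silencing, rose by 0.79 (SE 0.091) and then by 0.72 (SE 0.093). Its means over ex1, ex2 and ex3 were 1.55, 1.97 and 2.97 in Bon, 1.80, 2.79 and 3.50 in Moj, and 1.68, 2.65 and 3.10 in Vel. These means were higher from collection to collection while FLC was lower, but the evening mean in Bon was 2.64 in ex1 and 2.50 in ex2. From ex3 to ex4 VIN3 fell in Vel by 0.54 (limma adjusted p = 0.0095). VIN3 also had a steep time-of-day difference: the Spanish evening mean exceeded the morning mean by 2.17 (SE 0.132) in ex1, 1.08 in ex2 and 0.79 in ex3. The Col-0 mean of VIN3 in ex1 was 3.05. VAL2, a B3-domain protein of the family that recruits Polycomb factors to FLC, rose by 0.56, and VEL1, a VIN3 relative, fell by 0.79, both from ex1 to ex2.

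CLF, a Polycomb methyltransferase of histone H3 lysine 27, fell alongside FLC. Its lowest, median and highest values in Bon were 3.37, 3.86 and 4.34 in ex1 and 1.95, 2.45 and 2.66 in ex2. In Moj they were 3.79, 4.02 and 4.13 in ex1 and 1.69, 2.21 and 2.70 in ex2, and in Vel 3.63, 3.70 and 3.98 in ex1 and 1.80, 2.24 and 2.61 in ex2. The ranges of ex1 and ex2 did not overlap in these accessions. The fall was 1.57 (SE 0.067, limma adjusted p = 6.6e-29), with a further 0.42 (SE 0.068) from ex2 to ex3. CLF fell by 1.49 in Col-0 too, where its ex1 mean of 3.79 was close to that of the Spanish accessions. SWN, the second enzyme of this kind in leaves, rose by 0.13.

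The close relatives of FLC did not share its course throughout. Of 6 MADS repressors, 2 rose, 3 fell and 1 did not pass from ex1 to ex2 (median -0.05). From ex2 to ex3, 1 rose, 4 fell and 1 did not pass (median -0.24). The shares of all genes were 38% rising and 44% falling at the first step, and 27.1% and 26.3% at the second. MAF3 fell from ex1 to ex2 by 1.95 in Bon, 1.32 in Moj and 0.79 in Col-0, and in Vel its change was -0.02 (limma adjusted p = 0.94). Its ex1 means were 4.44 in Bon, 1.99 in Moj, 5.85 in Vel and 5.35 in Col-0. MAF5 was at 3.95 in Bon and 3.87 in Moj, and at 0.34 in Vel and 2.13 in Col-0 in ex1. Reads of every accession were assigned to gene models of the Col-0 genome, and the effect of sequence differences in these neighbouring copies was not tested. SVP, the MADS partner of FLC, rose by 0.16 and then by 0.38.

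Of 5 genes that FLC represses, 4 rose and 1 did not pass from ex1 to ex2 (median 0.49, beside -0.04 for all genes, of which 38% rose). SEP3, 1 of the 5, rose mainly in Bon, from a mean of 0.18 to 1.54. Its means were 0.23 and 0.31 in Moj and 0.00 and 0.02 in Vel. Summed flower organ markers also had a median of 8.31 in Bon ex2, and their part in the SEP3 rise was not tested. Between ex2 and ex3, 3 rose and 2 did not pass (median 0.58, beside 0.01 for all genes, of which 27.1% rose). SOC1, the MADS integrator, had lowest, median and highest values in Bon of 4.63, 5.14 and 5.45 in ex1, of 5.31, 5.91 and 6.43 in ex2 and of 6.19, 6.83 and 7.45 in ex3. It rose by 0.85 (SE 0.068) and then by 1.01 (SE 0.069) over the Spanish accessions. In Col-0, FLC started low and also fell from ex1 to ex2. SOC1 fell there by 0.35 at this step (limma adjusted p = 0.012) and then rose by 1.08. Over the 5 genes, Col-0 had 1 rise and 1 fall at that first step, where 28.7% of all genes rose and 29.3% fell. FD, the partner of FT, rose by 0.87 and 0.80 in the Spanish accessions and by 1.13 in Col-0 at the first step.

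FT, the mobile flowering signal, came later. It was listed at 0 in all libraries of Bon ex1 and ex2, and its highest value in Vel ex2 was 0.09. In ex3 every Spanish library had some, with 0.57 to 1.04 for Bon, 0.25 to 0.72 for Moj and 0.31 to 0.73 for Vel. The change over the Spanish accessions was -0.01 from ex1 to ex2 (limma adjusted p = 0.80) and 0.58 (SE 0.053, limma adjusted p = 2.3e-13) from ex2 to ex3. In ex4 it reached 1.39 to 2.63 in Vel, a rise of 1.59, and 0.49 to 1.83 in Col-0, a rise of 1.16. In Col-0 FT stayed near 0 in ex2 and ex3, with means of 0.11 and 0.12, while FLC was also near 0.

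Of 8 other floral promoters tested, 7 rose and 1 did not pass from ex1 to ex2 (median 0.95), where 38% of all genes rose. From ex2 to ex3, 2 rose, 1 fell and 5 did not pass (median 0.14), where 27.1% of all genes rose and 26.3% fell. TSF, the closest relative of FT, rose in Bon by 1.98 and then 2.34 and in Moj by 2.20 and then 1.87. In Vel it was listed at 0 in all of ex1 and ex2, and its mean was 0.60 in ex3 and 1.93 in ex4. FUL, a MADS promoter of flowering, rose by 0.95 and 1.15. In Col-0 too, 7 of 8 promoters rose from ex1 to ex2, where 28.7% of genes rose.

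**Figure D4:**
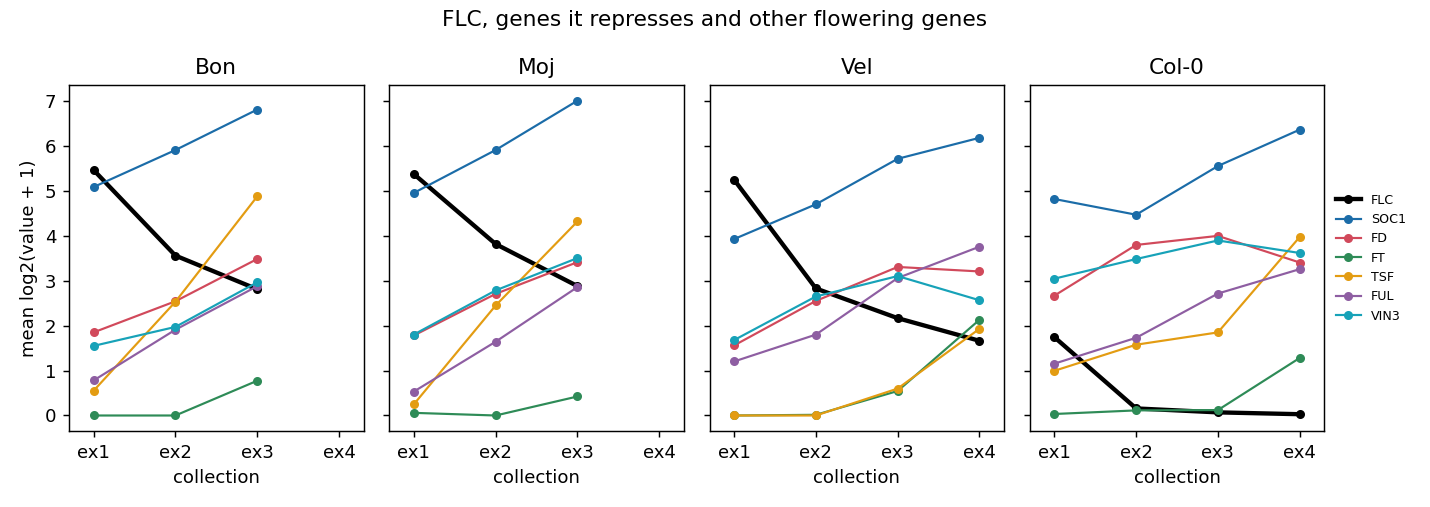
Mean log2 levels of FLC, the FLC-repressed genes SOC1, FD and FT, the floral promoters TSF and FUL and the silencing factor VIN3, by collection in each accession. SOC1 and FD are higher at each step up to ex3 in Bon, Moj and Vel while FLC is lower, and FT, whose means were at most 0.06 in ex1 and 0.02 in ex2 in these 3, is at 0.42 to 0.77 in ex3.

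To find genes that follow FLC, each gene was correlated with it over the libraries of Bon (18), Moj (16) and Vel (23), and the lowest of the 3 Pearson correlations was taken as likeness. These are descriptions, since libraries share collections, garden and processing. Of 17961 genes compared, 220 (1.22%) reached 0.9, the median likeness was -0.20, and 151 ran opposite with all 3 correlations at or below -0.9. The 10 most alike were FANCM (0.96), a helicase that limits crossovers in meiosis, TRM7 (0.95), AT4G32915 (0.95), annotated as a subunit of a chloroplast-type amidotransferase, CLF (0.95), AT1G18090 (0.94), annotated as an exonuclease, PDE338 (0.94), AT2G32550 (0.94), AT5G60150 (0.94), AT4G21820 (0.94) and SPCH (0.94), which starts the stomatal lineage. The 5 most opposite were AT4G12290, a copper amine oxidase, AT2G30840, AT1G23960, AT2G46620 and AT4G01610, a cysteine proteinase. AT4G12290 rose from a mean of 2.44 in Vel ex1 to 7.37 in ex2, and by 4.54 (SE 0.153) over the Spanish accessions. In Col-0, where FLC started low and fell too, the mean of AT4G12290 also rose, from 3.74 to 7.29.

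The likeness rests largely on the step from ex1. With libraries of ex2 onwards alone, a setting chosen after the data were seen, no gene reached 0.9, and of the 10 named genes 1 stayed among the first 50 and 7 among the first 500. FANCM still had correlations of 0.82 in Bon, 0.85 in Moj and 0.91 in Vel. CLF had 0.73, 0.73 and 0.77. With rank correlations 3 genes reached 0.9, with all 10 named genes within the first 266.

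The genes most like FLC in course were mostly unlike it in accession pattern. In Col-0, 218 of the 220 fell from ex1 to ex2, with a median change of -0.92, where 29.3% of all genes fell. Only 4 of the 220 were lower in Col-0 ex1 than in each Spanish accession by at least 1 log2 unit, and only AT2G32550, which encodes an Rcd1-like protein, by at least 3. This comparison was made after the values were seen. AT2G32550 had lowest, median and highest values in ex1 of 2.79, 3.42 and 3.997 in Bon, 3.57, 3.68 and 4.29 in Moj, 3.28, 3.63 and 3.86 in Vel, and 0.31, 0.37 and 0.70 in Col-0. Its falls from ex1 to ex2 were ordered as those of FLC, 1.98 in Moj, 2.33 in Bon and 2.74 in Vel. This order was not tested, and the FLC falls of Bon and Moj did not differ past the threshold in the main fit. From ex2 to ex3 AT2G32550 fell in Moj (by 0.71) and did not pass in Bon (-0.17) or Vel (-0.02).

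Over the 28 group means, Col-0 included, the genes most correlated with FLC were CSLB03 (0.96), a cellulose synthase-like gene, HTB1 (0.94), a histone H2B gene, AT2G32550 (0.93), AT5G57890 (0.93) and AT1G26530 (0.93). CSLB03 and AT2G32550 lie near each other on chromosome 2, from 13809019 to 13813572 and from 13819352 to 13822861. CSLB03 had ex1 means of 4.98 in Bon, 4.26 in Moj, 3.60 in Vel and 1.61 in Col-0. It fell by 2.18, 1.42, 1.15 and 1.13 from ex1 to ex2.

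Markers of dividing cells fell with FLC. Over the Spanish accessions together, all 5 tested fell from ex1 to ex2 (median -1.17) and from ex2 to ex3 (median -0.83), where 44% and 26.3% of all genes fell. In Vel alone none of the 5 passed from ex2 to ex3 (median 0.07), where 6.89% of all genes did. There 4 of them had a higher mean in ex3. Their summed linear level had medians of 51.7, 24.4 and 4.36 over ex1 to ex3 in Bon, and ranges of 41.2 to 53.8, 20.3 to 33.9 and 2.71 to 11.6. The medians were 62.1, 23.8 and 5.50 in Moj, 46.8, 16.02, 17.04 and 5.74 over ex1 to ex4 in Vel, and 38.2, 21.2, 26.1 and 4.80 in Col-0, and none of the 5 was at 0 throughout a group. So few genes passed from ex2 to ex3 in Vel that these markers are not set against FLC there. The part of dividing cells in the fall of FLC and of its followers was not tested. CYCB1;1, the mitotic cyclin, had a likeness of 0.90, and CDKB2;1 and KNOLLE had 0.87. CDKB1;1 and PCNA1 were less alike, at 0.74 and 0.69. Among the 218 alike genes with an upstream region, 30.7% (67 genes) held AACGG, beside 20.6% of all regions. Only 5 genes (2.29%) held TTTCCCGC, beside 0.619% of all regions, and neither share was tested. CATGCA was held by 5.05%, beside 8.43%. For CACGTG the shares were 7.34% and 6.49%, for AAATATCT 4.59% and 4.79%, and for CCGAC 13.3% and 12.0%.

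Tissues were checked by their markers, at a step where 38% of all genes rose and 44% fell over the Spanish accessions. Of 5 leaf markers, 4 fell from ex1 to ex2 and RBCS1A did not pass. Their summed level ranged from 14910 to 19890 in the Spanish ex1 libraries. In ex2 it was lower without overlap in Bon (12780 to 15400) and Moj (9738 to 15150), with 12860 to 15300 in Vel. In Vel ex4 it ranged from 4943 to 13300. RBCS1A read 13.3, its highest value, in every Bon library, and LHCB1.1 read 12.07, its highest, in every Spanish ex1 library. Quantile normalization gives genes of the same rank the same value in each library, so such values cannot show a change. The sum, which holds both genes, is therefore a limited check of tissue. Flower organ markers AP3 and A9 were at 0 in all ex1 libraries of Bon, Moj, Vel and Col-0, and 4 of 6 rose to ex2, with summed levels of up to 14.1 in Bon ex2 and, later, up to 26.0 in Col-0 ex3. Of 5 root markers PLT1 was at 0 in every accession and collection but Moj ex1, and COBL9 had means of at most 0.19 over an accession and collection. PYK10, SCR and WER were present, with Spanish ex1 means of 3.63 to 4.81, 3.89 to 4.31 and 0.70 to 1.13, and all 3 fell. The root marker sum was lower along with FLC, with medians of 49.6, 27.4 and 14.2 over ex1 to ex3 in Bon, 31.8, 15.9 and 11.7 in Moj, and 27.8, 16.6, 12.0 and 11.2 over ex1 to ex4 in Vel. Phloem markers, of tissue where FLC represses FT, gave 1 rise and 2 falls, and SUC2 rose by 0.68. The sum of 4 meristem markers was mostly higher at later collections. Its medians were 11.7, 14.7 and 23.1 over ex1 to ex3 in Bon and 9.62, 19.3 and 32.5 in Moj. In Vel they were 9.08, 11.4, 9.29 and 39.8 over ex1 to ex4. The part of these tissues in the FLC values was not tested.

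**Figure D5:**
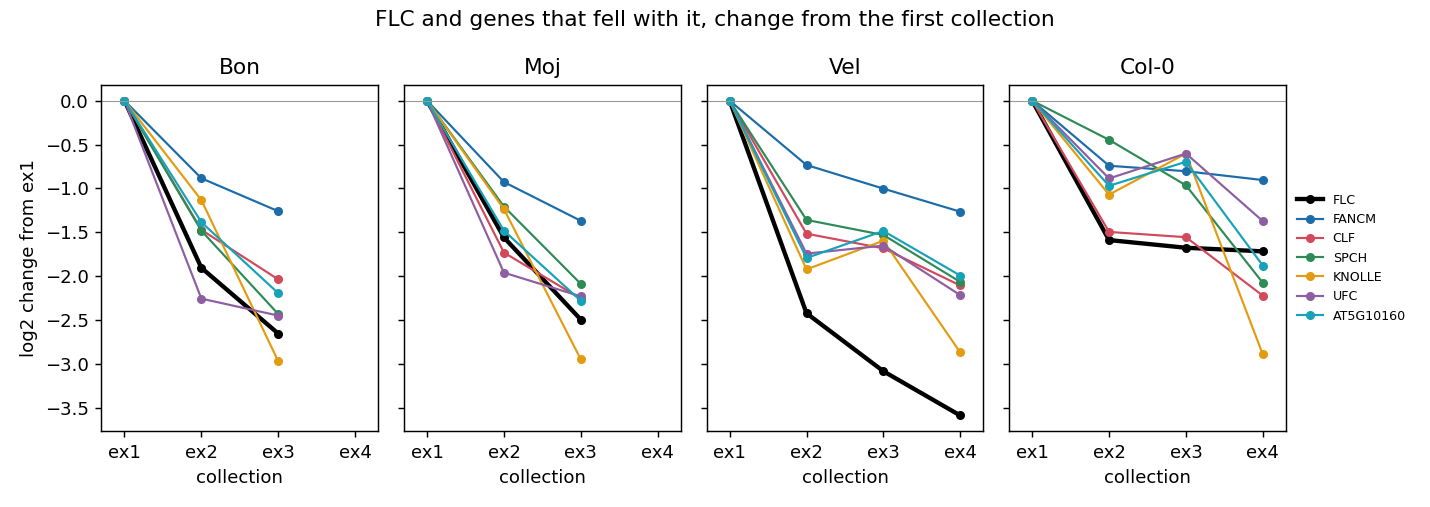
Change of the mean log2 level from ex1 in each accession for FLC, for FANCM, CLF and SPCH among the genes most like it, for the division marker KNOLLE and for the neighbouring genes UFC and AT5G10160. In Vel, the fall counted from ex1 is larger for FLC than for the 6 others at each collection, though not at each single step. Between ex2 and ex3 KNOLLE, UFC and AT5G10160 have higher means in ex3 there, without passing, while FLC goes on falling.

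On the chromosome, the tested neighbours of FLC fell at the first step over the Spanish accessions together, where 44% of all genes fell. UFC fell by 1.99 (SE 0.082, limma adjusted p = 1.6e-29) from ex1 to ex2 and did not pass from ex2 to ex3 (-0.12, adjusted p = 0.21). Its lowest, median and highest values were 2.82, 3.77 and 4.91 in Bon ex1 and 1.13, 1.61 and 1.90 in Bon ex2. In Col-0 too UFC fell, by 0.89, from a mean of 2.84 that lay below those of Bon (3.82), Moj (3.15) and Vel (3.42). Unlike FLC it was strongly lower in the evening in ex1, by 1.70 over the Spanish accessions (SE 0.118), and by 0.39 in ex2. AT5G10160, a thioesterase-family gene 6285 bases away, fell by 1.55 (SE 0.074) and 0.43, and MIPS3, beyond it and overlapping its end, changed by -0.59 and 0.23. On the other side only AT5G10110 was tested, since DFC and AT5G10120 had values too low. AT5G10110 fell by 0.22. Its means in ex1 and ex2 were 2.99 and 2.95 in Bon, 3.13 and 2.73 in Moj, and 2.88 and 2.67 in Vel. Likeness to FLC was 0.84 for UFC, 0.77 for AT5G10160, 0.25 for MIPS3 and 0.39 for AT5G10110, all short of 0.9.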

How the data were processed

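The deposited values are on a log2 scale, for 33602 genes in 80 libraries. The authors used FastQC, HISAT2, StringTie and TAIR10, per the submitters' processing notes. Tool versions are not given in the sources used here. An offset of 1, a length normalization and a quantile normalization were read from the values, whose column totals lie between 65882 and 66017. Depth is unknown. Differences of low values are understated on this scale.

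A gene was kept where 3 or more libraries had a value of 1 or more. The 20871 genes kept went into a limma 3.58.1 fit (trend, 28 group means, 51 residual degrees of freedom) in R 4.3.3. Tests were two-sided, times of day had equal weight, and p was adjusted over all genes by Benjamini-Hochberg, with 0.05 as the threshold. FLC was also tested by exact permutation. The scripts were tested on simulated data. Names, positions and upstream regions come from RefSeq's annotation of TAIR10.1, the same assembly as TAIR10. Plots were drawn with matplotlib 3.10.9 under Python 3.11.15 (numpy 2.4.6, pandas 2.3.3).

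FLC and the gene lists were chosen with earlier results of these data known. Named genes are list members, the 10 most and 5 least alike by likeness among genes whose mean reaches 1 in some collection of each Spanish accession, the 5 most alike over group means and over deviations, and 3 neighbours on each side. Alternatives were another offset, no filter, the left-out library, reference genes, a fit to 1 accession, a replicate block, rank correlation, and leaving out replicates or libraries.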

Additional observations from a re-analysis of the deposited data

Results flagged for a closer look

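The drop of FLC from ex1 to ex2 differed between accessions in a test of the difference itself. It was 0.52 log2 units larger in Vel than in Bon (difference 0.52, limma adjusted p = 0.015) and 0.86 larger than in Moj (difference 0.86, adjusted p = 7.6e-05). Against Col-0, the Vel change differed by -0.83 at this step (adjusted p = 4.8e-05), but with an offset of 0.1 this turned to 1.19, so no direction is read from it. From ex2 to ex3, the changes in Bon, Moj and Vel differed from that in Col-0 by -0.66, -0.85 and -0.57 (adjusted p = 0.0011, 8.3e-05 and 0.044), and from ex3 to ex4 Vel differed from Col-0 by -0.46 (adjusted p = 0.047). Leaving out single replicates or libraries, the Vel value missed the threshold in 16 of 26 fits for the first of these steps and in 17 of 25 for the second. FLC in Col-0 was near 0 from ex2 on, so these last 4 differences have no room on the Col-0 side.

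The evening minus morning difference of FLC itself changed between collections. From ex1 to ex2 it moved by -0.71 in Bon (limma adjusted p = 0.0086), by -0.55 in Vel (0.048), by -0.71 in Col-0 (0.013) and by -0.51 over the Spanish accessions (7.5e-04). From ex1 to ex3 it moved by -0.77 in Col-0 (0.0087) and by -0.38 over the Spanish accessions (0.016).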

How the results depend on the processing

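Every fall of FLC between collections that passed kept its direction and its side of the threshold under all alternatives, except Vel from ex2 to ex3, which was -0.79 with an offset of 0.1 (limma adjusted p = 0.056). With that offset the values of Col-0 near 0 widen the shared spread. The differences in step from ex1 to ex2 were 0.60 for Bon minus Vel and 0.97 for Moj minus Vel and missed the threshold, Moj minus Col-0 passed at 2.15, and Bon minus Col-0 (1.79) and Vel minus Col-0 (1.19) changed sign. From ex2 to ex3, Bon, Moj and Vel minus Col-0 (-0.47, -0.67 and -0.42), and from ex3 to ex4 Vel minus Col-0 (-0.44), missed it. So did evening minus morning in Col-0 ex1 (0.86), Bon, Moj and Vel ex2 (-0.75, -0.59 and -0.79), Bon and Moj ex3 (-0.54 and -0.85) and Vel ex4 (-0.56), while Col-0 ex3 passed (-0.89). With the same offset but without the Col-0 libraries, an alternative chosen after seeing the data, these Spanish values and Bon and Moj minus Vel were back past the threshold. The number of genes as alike as FLC at 0.9 was 109 with this offset.

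Without a filter, and with the left-out library, Vel minus Col-0 missed the threshold from ex2 to ex3 (-0.57) and from ex3 to ex4 (-0.46). Subtracting 4 reference genes made Bon minus Moj (-0.55) and Bon minus Col-0 (-0.50) pass for the first step, and lost Bon minus Vel (0.30), Vel minus Col-0 at the later steps (-0.54 and -0.41) and evening minus morning in Bon ex3 (-0.33) and Vel ex4 (-0.33). Bon minus Vel in ex1 (0.53) and Bon minus Moj in ex2 (-0.33) then passed. The number of genes as alike as FLC was 127 after that subtraction, 3 with rank correlation and 0 with ex2 onwards. The cause of these shifts was not tested.

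Replicate numbers did not pair the libraries: over 54 same-numbered pairs, deviations correlated at a median of 0.001. The replicate block lost Vel minus Col-0 from ex2 to ex3 (-0.57, adjusted p = 0.0501) and the ex2 against ex1 time-of-day interaction in Vel (-0.55, adjusted p = 0.052), and no other FLC call.

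Leaving out replicates or single libraries, calls changed for the first step in Bon minus Vel (0.46 to 0.59) and Bon minus Col-0 (-0.43 to -0.20), for the second in Bon minus Col-0 (-0.79 to -0.45) and Vel minus Col-0 (-0.66 to -0.43), and for the third in Vel minus Col-0 (-0.56 to -0.33). They also changed for evening minus morning in Bon ex3 (-0.78 to -0.27), Col-0 ex1 (0.33 to 0.86), Moj ex2 (-0.65 to -0.47), Moj ex3 (-0.88 to -0.64) and Vel ex4 (-0.49 to -0.25), and for Bon minus Moj in ex2 (-0.32 to -0.17). The number of genes as alike as FLC was 181 to 336, the most without replicate 3. Single libraries left alone in a group are assumed to vary like the others.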

Other observations

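Within groups, across the 57 Spanish libraries, the deviations of FLC from its group means correlated most with those of GME (0.76), an enzyme of ascorbate synthesis, SPS1 (0.73), CCD1 (0.73), a carotenoid cleavage enzyme, CNGC5 (0.73) and AT1G18660 (0.72). None of these 5 was among the genes most like FLC over collections, and GME had a likeness of -0.26 there. These correlations are descriptions over libraries that share groups.

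SOC1 turned its time-of-day difference between collections. Its Spanish evening mean was 0.63 above the morning mean in ex1 (SE 0.098, limma adjusted p = 2.3e-07), and it was 0.39 below in ex2 (difference -0.39, adjusted p = 3.1e-04) and 0.70 below in ex3 (difference -0.70, adjusted p = 3.4e-08).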
